A study of Caenorhabditis elegans with 6 samples.

Results

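The ABC transporter genes of Caenorhabditis elegans were taken by name from the deposited gene table: every gene called pgp, mrp, cft, haf, wht, pmp or abt followed by a number. This gave 48 of 46926 genes, made up of 14 pgp, 8 mrp, 1 cft, 8 haf, 8 wht, 5 pmp and 4 abt genes. Whole wild-type animals of the strain N2, in late L4 or young adulthood, were compared after 5 hours in buffer with 25 µM chaetocin or with its solvent DMSO, and both groups received heat-treated OP50 bacteria as food. Each group held 3 libraries, labelled as biological replicates 1 to 3, and the labels do not say whether they came from separate cultures, so the tests measure the spread between these libraries. Chaetocin is a fungal toxin used in the laboratory as an inhibitor of lysine methyltransferases.

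ABC transporters are membrane proteins that use the energy of ATP to move drugs, metals, lipids, peptides and other compounds across membranes. Full transporters carry all their working domains in a single chain, whereas half-size transporters join in pairs to work. The pgp genes are named after P-glycoprotein, the drug pump of the ABCB class, and the mrp genes after the multidrug resistance proteins of the ABCC class, to which cft-1 also belongs. The haf genes encode half-size ABCB transporters and the wht genes half-size ABCG transporters related to the White protein of Drosophila. The pmp genes belong to the ABCD class known from peroxisomes, and the abt genes to the ABCA class, whose mammalian members move lipids. Names follow sequence and not place: PGP-2, MRP-4, HAF-4 and HAF-9 are known from the gut granules, lysosome-related organelles of intestinal cells.

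Chaetocin was accompanied by higher RNA levels of 9 of these genes. They were pgp-1, pgp-3, pgp-5, pgp-9, pgp-14, mrp-1, mrp-2, mrp-3 and abt-4. Of the 45 tested genes 0 were called lower, against 2.92% of all genes tested. At unadjusted p under 0.05 (limma) 2 were lower, mrp-4 and pmp-4. The gains ran from 1.96-fold for abt-4 and pgp-3 to 54.7-fold for pgp-9. The pgp and mrp classes held 8 of them. Of the 20 tested haf, wht and pmp genes 0 passed the test (limma, with 3 at unadjusted p under 0.05, wht-4, pmp-1 and pmp-4). Among all genes tested 5.53% were called higher, so 0 of 20 is near that share. Levels are given as FPKM, fragments set relative to transcript length and to all fragments of the library, so that they can be compared between genes. A call means an adjusted p under 0.05 in a limma fit to all 15213 genes that reached 0.5 FPKM in 3 or more libraries.

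Of the 48 genes 45 passed that filter and were tested. Among all genes tested, 5.53% were called higher and 2.92% lower with chaetocin. The 9 of 45 include pgp-1, which reached 0.5 FPKM in none of the DMSO libraries and so was tested only because of its level with chaetocin. Among genes with at least 0.5 FPKM in a DMSO library, 8 of 44 members were called higher, against 5.10% of all such genes. The median log2 fold change of the 45 genes was 0.10, and that of all genes tested was -5e-04. In 16 of the 45 genes all chaetocin libraries lay above all DMSO libraries, which held for 14.5% of all genes tested, and in 2 of 45 they lay wholly below, which held for 11.6%. The untested genes were haf-8, listed at 0 FPKM in 5 libraries and at 0.01005 in DMSO replicate 2, and pgp-7 and pgp-8, which stayed between 0 and 0.180 FPKM in every library.

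**Figure D1:**
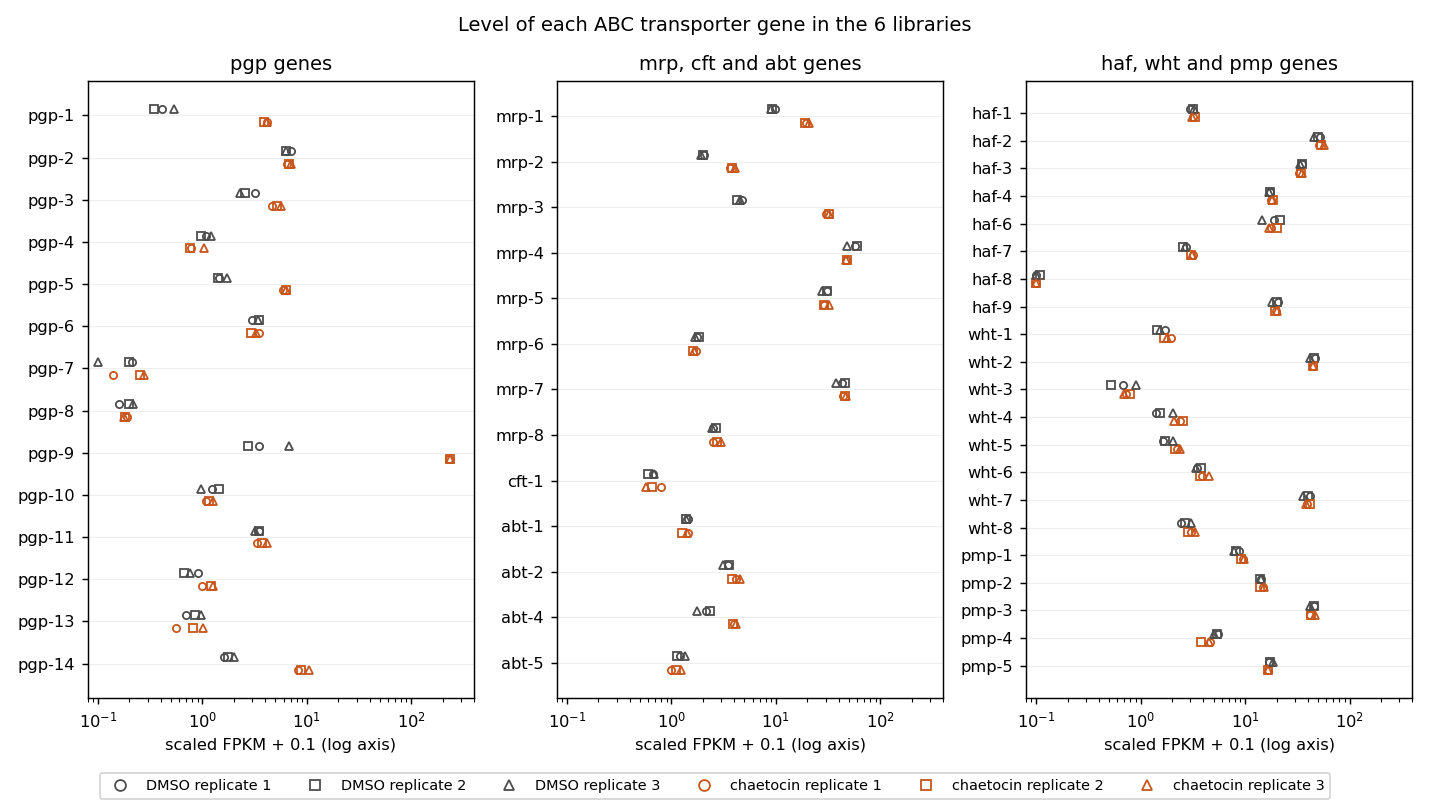
Scaled FPKM plus 0.1, on a log axis, of all 48 ABC transporter genes; each symbol is 1 library, grey for DMSO and orange for chaetocin, with a shape for each replicate number. The chaetocin symbols of pgp-9 lie at 227 to 237 FPKM, right of all DMSO symbols, while most symbols of the haf, wht and pmp genes lie on top of each other.

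Facts of the libraries bear on all of these values. FPKM columns summed to between 1232966 and 1326067, and between 18747 and 18933 genes were above 0 per library. Pearson's r of log2 values across tested genes, which are not independent, was 0.9753 to 0.982 between libraries of a group and 0.960 to 0.965 between groups. Ribosomal RNA took 0.755 to 4.13% of the FPKM. The files hold no counts per library, so the depth of each library is unknown. The authors' deposited table gives only a mean normalized count per gene over the libraries, from 13.1 for pgp-7 to 13891 for pgp-9 among the members listed. The labels give whole animals as the tissue, and the markers of intestine, pharynx, excretory cell, germline, muscle and neuron that were found in the table were all above the filter.

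The P-glycoprotein genes were at low levels in DMSO and held the largest gain. pgp-9 (WBGene00004003, chromosome V, 17755892 to 17764751, WBcel235) is a gene whose relative in the sheep parasite Teladorsagia circumcincta is studied for ivermectin resistance. It stood at 3.37, 2.63 and 6.73 FPKM in DMSO replicates 1, 2 and 3. The chaetocin replicates held 227, 233 and 237 FPKM. The groups were far apart, and DMSO replicate 3 was the highest of its group. The log2 fold change was 5.85 ± 0.31 (SE; adjusted p by limma = 6.1e-05), the rank 11 from the top among 15213 genes, and it ranged from 5.58 to 6.24 when single libraries were left out. By mean FPKM pgp-9 was number 19 of the 48 genes with DMSO and number 1 with chaetocin. Among all 46926 genes its place moved from 10042 to 686.

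pgp-1 (WBGene00003995, chromosome IV, 12591704 to 12599169), a gene tied to tolerance of heavy metals and of Pseudomonas toxins, was barely detected without chaetocin. DMSO libraries held 0.312, 0.241 and 0.438 FPKM of it, and chaetocin libraries 4.02, 3.76 and 4.04 FPKM. The groups did not overlap, and the ratio of means was 11.9. Its log2 fold change of 3.26 ± 0.21 (adjusted p by limma = 0.00014) depends on the pseudocount of 0.1 FPKM, since it was 1.89 with a pseudocount of 1 FPKM and still called.

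pgp-14 (WBGene00004008, chromosome X, 12744723 to 12749580) acts in the pharynx, where its product helps to form a lipid barrier in the cuticle. Its levels were 1.51, 1.65 and 1.93 FPKM with DMSO and 8.17, 8.70 and 10.4 FPKM with chaetocin. All chaetocin libraries were above all DMSO libraries, with a log2 fold change of 2.36 ± 0.14 (adjusted p by limma = 9.3e-05). pgp-5 (WBGene00003999, chromosome X, 10854216 to 10859297) is known for its induction by infection and by blocked translation. It held 1.35, 1.33 and 1.64 FPKM with DMSO and 5.78, 6.17 and 6.196 FPKM with chaetocin, a log2 fold change of 2.01 ± 0.12 (adjusted p by limma = 0.00011). pgp-3 (WBGene00003997, chromosome X, 11352156 to 11357094), which protects worms from colchicine and chloroquine, made the smallest gain of the called pgp genes. It held 3.07, 2.46 and 2.19 FPKM with DMSO and 4.54, 5.11 and 5.51 FPKM with chaetocin (log2 fold change 0.96 ± 0.15; adjusted p by limma = 0.0097). Its groups did not overlap, but lay closer together than those of the other called pgp genes. With the replicate number added to the fit as a block, pgp-3 missed the threshold (adjusted p by limma = 0.058). That block follows the labels' replicate numbers 1 to 3, whereas the library titles number the DMSO libraries NA1, NA3 and NA4.

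The other 7 tested pgp genes missed the threshold. pgp-2, needed for acidic gut granules and fat storage, was the most abundant pgp gene in DMSO, with 6.49 ± 0.420 FPKM (SD, n = 3) and 6.69 ± 0.262 FPKM with chaetocin. The 95% interval of its log2 fold change ran from -0.15 to 0.24 (limma). pgp-12, whose promoter is active in the excretory cell, stood at 0.814, 0.573 and 0.662 FPKM with DMSO and 0.886, 1.12 and 1.16 FPKM with chaetocin. These libraries did not overlap, yet the log2 fold change of 0.56 ± 0.21 missed the threshold (adjusted p by limma = 0.20), and its interval of 0.05 to 1.07 includes a doubling. pgp-4, pgp-6, pgp-10, pgp-11 and pgp-13 had log2 fold changes between -0.34 and 0.15 with limma adjusted p of at least 0.44, and their groups overlapped.

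As a class the pgp genes summed to 26.5, 25.0 and 29.2 FPKM in the DMSO libraries and to 266, 274 and 281 FPKM in the chaetocin libraries, a 10.2-fold ratio of means given as a description with no test. pgp-9 made up 12.7, 10.5 and 23.04% of that sum with DMSO and 85.4, 85.1 and 84.1% with chaetocin. Without pgp-9 the class summed to 22.7 ± 0.436 and 41.4 ± 3.11 FPKM (SD, n = 3 each). Over all 48 genes pgp-9 took 28.8 to 29.1% of the summed FPKM of each chaetocin library and 0.501 to 1.41% of each DMSO library.

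**Figure D2:**
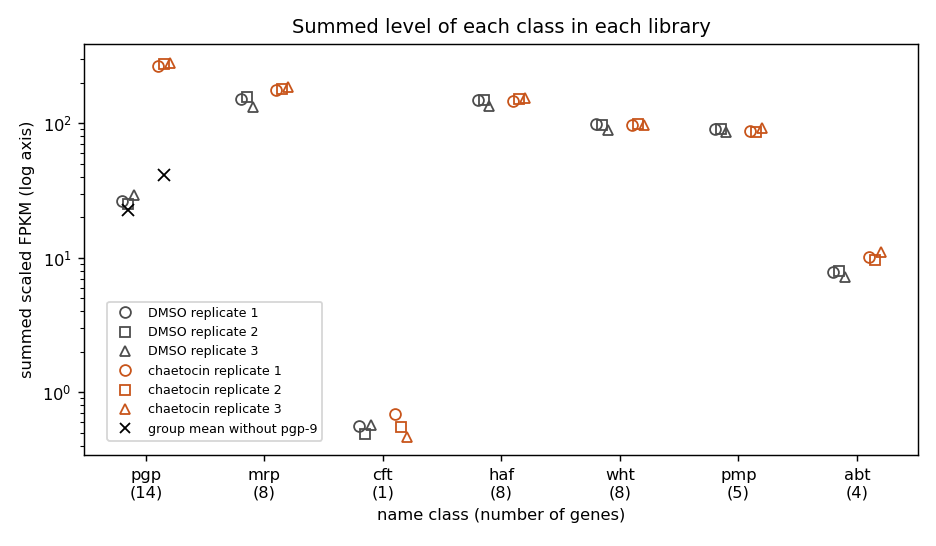
Summed scaled FPKM of each name class on a log axis; symbols are single libraries, and black crosses are the group means of the pgp class without pgp-9. The pgp sums lie at 25.0 to 29.2 FPKM with DMSO and 266 to 281 FPKM with chaetocin, and the haf, wht and pmp sums of both groups lie side by side.

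The multidrug resistance protein genes split into 3 that rose and 5 that missed the threshold, against 5.53% of all genes tested called higher. By DMSO mean mrp-1, mrp-4, mrp-5 and mrp-7 stood above every pgp gene. The levels of mrp-2, mrp-3, mrp-6 and mrp-8 lay within the pgp range. mrp-3 (WBGene00003409, chromosome X, 15929955 to 15939324) stood at 4.60, 4.16 and 4.40 FPKM with DMSO and at 30.2, 31.8 and 32.4 FPKM with chaetocin. The spread within each group was small beside this 7.17-fold gain, and the log2 fold change of 2.81 ± 0.06 had the smallest adjusted p of the 48 genes (adjusted p by limma = 3.3e-06). mrp-1 (WBGene00003407, chromosome X, 576312 to 587898), which protects worms from cadmium and arsenite, held 9.80, 9.16 and 8.80 FPKM with DMSO and 19.2, 18.9 and 20.5 FPKM with chaetocin. It had the highest level with DMSO among the 9 called genes, and about doubled (log2 fold change 1.07 ± 0.07; adjusted p by limma = 0.00012). Its neighbour mrp-2 (WBGene00003408, chromosome X, 563711 to 572701) stood at 1.93, 1.90 and 1.82 FPKM with DMSO and at 3.53, 3.69 and 3.92 FPKM with chaetocin. With a log2 fold change of 0.94 ± 0.11 (adjusted p by limma = 0.0023) its groups were also wholly apart.

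The most abundant mrp genes were not among those that rose. mrp-4, which acts in gut granule differentiation, had the highest DMSO level of all 48 genes, with 56.9, 59.1 and 47.5 FPKM with DMSO and 47.0, 48.0 and 46.8 FPKM with chaetocin. DMSO replicate 3 lay within the chaetocin range, and the log2 fold change of -0.20 ± 0.08 missed the threshold (adjusted p by limma = 0.23). mrp-4 overlaps F21G4.1 on the other strand, which stood at 3.24 and 5.19 FPKM. Without DMSO replicate 3 the change of mrp-4 was -0.295 and passed (adjusted p by limma = 0.0060). mrp-5, the intestinal exporter of heme, held 29.8 ± 1.76 and 29.9 ± 1.68 FPKM (SD, n = 3 each), and the interval of its log2 fold change was -0.14 to 0.16. mrp-7 stood at 42.1 ± 4.55 and 45.1 ± 1.55 FPKM, and mrp-6 and mrp-8 stayed under 3 FPKM, with limma adjusted p of 0.74 and 0.71. cft-1, named for its likeness to the human chloride channel CFTR, had 0.543 ± 0.0443 and 0.570 ± 0.1098 FPKM (adjusted p by limma = 0.94). It overlaps ugt-48 on the other strand, which held 2.52 FPKM in DMSO and 11.2 FPKM in chaetocin libraries on average. The summed mrp level was 146 ± 12.9 FPKM with DMSO and 181 ± 5.12 FPKM with chaetocin.

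**Figure D3:**
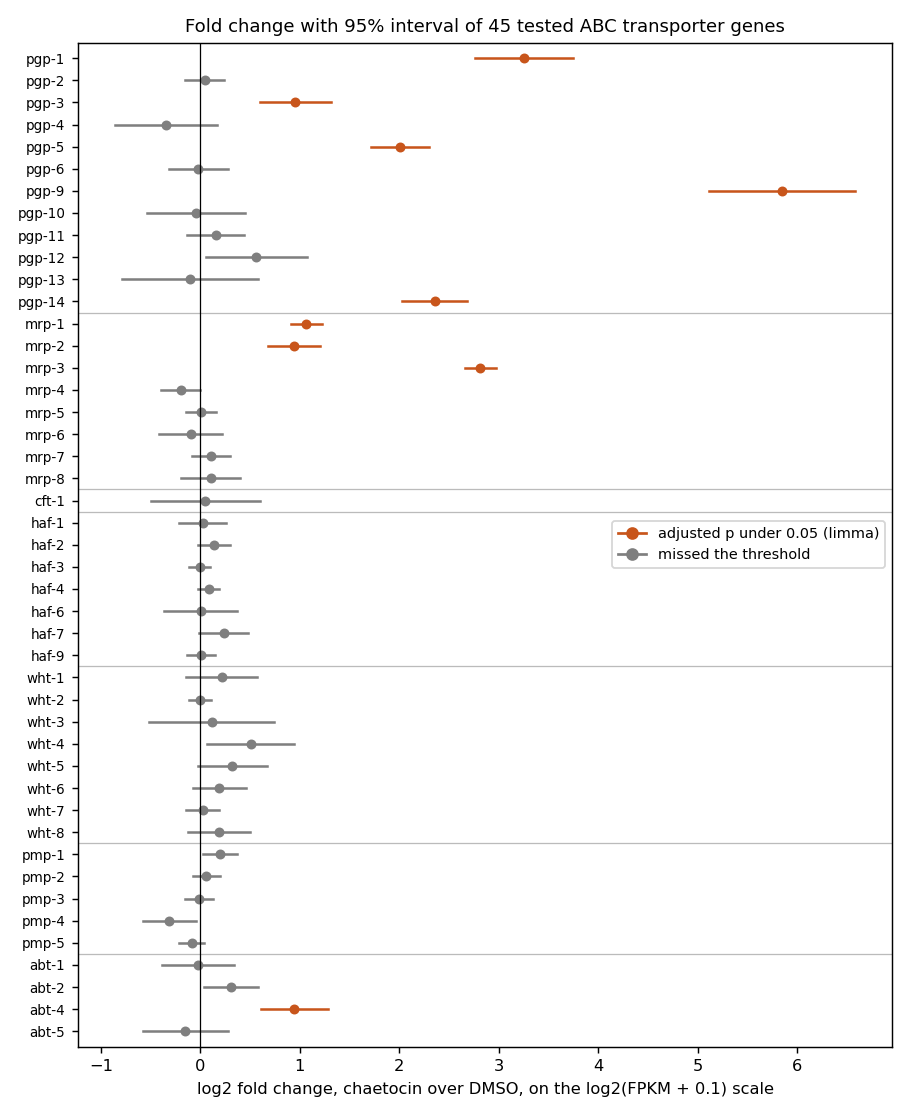
Log2 fold change of chaetocin over DMSO for the 45 tested genes, with the 95% interval of the limma fit as a line; orange marks adjusted p under 0.05. The 9 called genes lie between 0.94 and 5.85, and the other 36 lie between -0.34 and 0.56.

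The half-size transporters of the haf class showed little difference between the groups. All 7 tested haf genes lay within 1.2-fold, with log2 fold changes from -0.01 to 0.23. This held for 74.8% of all genes tested, so 7 genes do not set the class apart. haf-2 was the most abundant, at 49.1 ± 3.57 FPKM with DMSO and 53.95 ± 3.05 FPKM with chaetocin (adjusted p by limma = 0.32). haf-4 and haf-9, whose products pair on the membrane of gut granules, stood at 17.1 ± 0.332 and 19.5 ± 1.25 FPKM with DMSO and at 18.1 ± 0.308 and 19.6 ± 0.379 FPKM with chaetocin. The intervals of their log2 fold changes were -0.03 to 0.19 and -0.14 to 0.15 (limma). haf-1, the mitochondrial peptide exporter of the mitochondrial unfolded protein response, held 3.04 ± 0.146 and 3.09 ± 0.0836 FPKM. haf-6, needed for efficient RNA interference, varied more within a group, with 18.9, 21.7 and 14.4 FPKM with DMSO and 17.6, 20.1 and 16.8 FPKM with chaetocin. haf-4 and haf-7 had all chaetocin libraries above all DMSO libraries, which held for 14.5% of all genes tested. haf-7 stood at 2.995 ± 0.0764 FPKM with chaetocin against 2.53 ± 0.0871 FPKM with DMSO. Both missed the threshold (adjusted p by limma = 0.39 for haf-4 and 0.27 for haf-7).

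None of the 8 wht genes was called (limma, with 1 at unadjusted p under 0.05, wht-4), against 5.53% of all genes tested called higher. Of their log2 fold changes 7 were above 0, and the median was 0.19. wht-2 and wht-7 led the class with 44.7 ± 2.45 and 39.0 ± 3.21 FPKM with DMSO and 44.4 ± 0.212 and 39.6 ± 1.82 FPKM with chaetocin. wht-4 had 1.32, 1.43 and 1.95 FPKM with DMSO and 2.29, 2.43 and 1.995 FPKM with chaetocin. The lowest chaetocin and the highest DMSO library of wht-4 lay close together, and its log2 fold change of 0.50 ± 0.18 missed the threshold (adjusted p by limma = 0.18). wht-1, which like haf-6 is needed for RNA interference, had 1.45 ± 0.134 and 1.70 ± 0.138 FPKM (adjusted p by limma = 0.49).

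Of the 5 pmp genes 0 were called (limma, with 2 at unadjusted p under 0.05, pmp-1 and pmp-4). Among all genes tested 5.53% were called higher and 2.92% lower, so 0 of 5 is near those shares. pmp-4 was the lowest in level, at 5.42, 5.34 and 4.90 FPKM with DMSO and 4.53, 3.66 and 4.42 FPKM with chaetocin. Its chaetocin libraries were all below its DMSO libraries, with a log2 fold change of -0.31 ± 0.11 (adjusted p by limma = 0.18). pmp-1 lay the other way, at 8.20 ± 0.451 and 9.43 ± 0.337 FPKM, with a log2 fold change of 0.20 ± 0.07 (adjusted p by limma = 0.17). pmp-3, widely used as a reference gene in worm expression studies, had 44.2 ± 2.32 and 43.7 ± 2.35 FPKM, and its interval of -0.15 to 0.12 on the log2 scale is narrow beside the called changes. The class summed to 88.9 ± 2.18 and 88.3 ± 3.41 FPKM (SD, n = 3 each).

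Among the 4 ABCA genes, whose relatives in mammals move lipids, abt-4 was the 1 that rose. Of all genes tested 5.53% were called higher, and a single call among 4 says nothing about the class. abt-4 (WBGene00000022, chromosome V, 323777 to 330725) held 2.06, 2.26 and 1.66 FPKM with DMSO and 3.86, 3.75 and 4.08 FPKM with chaetocin. The groups did not overlap (log2 fold change 0.94 ± 0.14; adjusted p by limma = 0.0077). abt-2, at 3.35, 3.47 and 3.01 FPKM with DMSO and 4.08, 3.74 and 4.44 FPKM with chaetocin, also had separate groups but missed the threshold (log2 fold change 0.31 ± 0.11; adjusted p by limma = 0.18). abt-1 and abt-5 stood at 1.29 ± 0.0384 and 1.13 ± 0.112 FPKM with DMSO and at 1.27 ± 0.103 and 1.01 ± 0.121 FPKM with chaetocin.

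The 9 called genes had DMSO means between 0.330 and 9.25 FPKM, and 23 of the 36 that missed the threshold lay in that range too. Of the 13 members above 10 FPKM with DMSO, a level picked after the values were seen, 0 were called (limma; 1 at unadjusted p under 0.05, mrp-4), against 4.47% of all genes above that level called higher. Of the 36 genes that missed it, 35 had a 95% interval of the log2 fold change inside a doubling or halving, the exception being pgp-12. In 30 of the 45 tested genes (66.7%) the estimate lay within 1.2-fold, against 74.8% of all genes tested. Across the called genes the libraries were not ordered alike: DMSO replicate 3 was the highest DMSO library for pgp-1, pgp-5, pgp-9 and pgp-14 and the lowest for pgp-3, mrp-1, mrp-2 and abt-4. Each of the 9 calls held without any single library (limma, adjusted p up to 0.046).

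Several called genes sit in runs of related genes on chromosome X, which carries 16 of the 48 genes. Of the 14 tested there 6 were called higher, against 6.09% of all tested genes on that chromosome. Apart from mrp-1 and mrp-2, the ABC transporter genes within 20 kb of a called one missed the threshold or were below the filter. pgp-4 lies 0.721 kb from pgp-3 on the same strand and held 0.983 ± 0.118 FPKM with DMSO and 0.760 ± 0.163 FPKM with chaetocin (SD, n = 3 each). The log2 ratio of pgp-3 to pgp-4 went from a mean of 1.296 to 2.595, with the groups apart. pgp-8 ends 3 bases from pgp-5 on the same strand and was listed at 0.0603 to 0.117 FPKM with DMSO and 0.0798 to 0.0896 FPKM with chaetocin. pgp-6, in the same run, held 3.19 ± 0.262 and 3.14 ± 0.297 FPKM (SD, n = 3), and the log2 ratio of pgp-5 to pgp-6 was higher by 2.03 with chaetocin.

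pgp-13 lies 0.611 kb from pgp-14 on the other strand and had 0.738 ± 0.132 and 0.697 ± 0.231 FPKM, and the log2 ratio of pgp-13 to pgp-14 went from -1.104 to -3.563. mrp-1 and mrp-2, 3.61 kb apart on the same strand, were the 1 pair of neighbours in which both rose, and their log2 ratio moved by 0.13. Exact two-sided permutation tests of these ratios each gave 0.1, the smallest p that 3 against 3 libraries allow, so no pair could pass 0.05 (12 pairs within 20 kb were computed). Fragments that match several related genes were divided by estimation, so levels of genes within a run are less certain than those of lone genes. nhr-27, which overlaps pgp-12, pgp-13 and pgp-14, was at 0.0134 and 0.0302 FPKM.

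**Figure D4:**
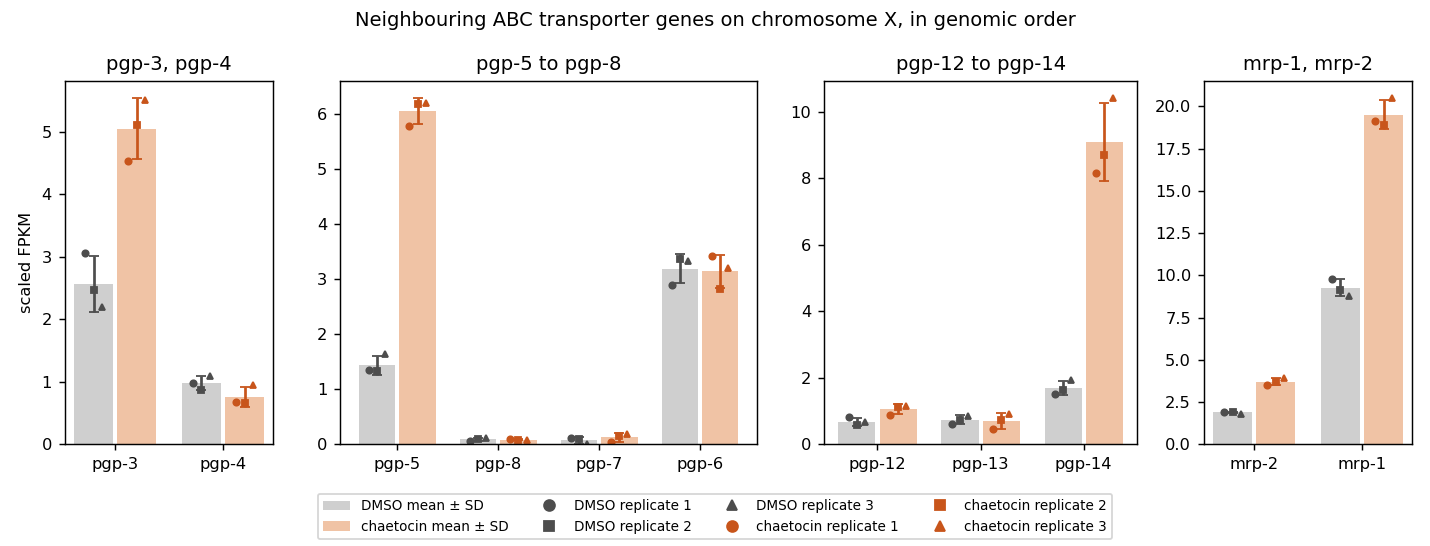
Scaled FPKM of neighbouring ABC transporter genes on chromosome X, in genomic order; bars are means, error bars are SD over 3 libraries and symbols are single libraries. pgp-3, pgp-5, pgp-14, mrp-1 and mrp-2 are higher with chaetocin, while pgp-4, pgp-6, pgp-7, pgp-8 and pgp-13 have overlapping groups.

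The transcript table lists 75 transcripts of the 48 genes, and 16 genes have more than 1. Of 58 transcripts tested, 11 were called higher and 0 lower with chaetocin (limma), against 3.13% and 1.54% of all 21002 transcripts tested. They belonged to the 9 called genes, 1 transcript each and a pair for pgp-5 and mrp-1. Each called gene other than pgp-5 and mrp-1 has a single listed transcript. Its values nearly repeat those of the gene, so these calls restate the gene calls. The transcript of pgp-1 reached 0.5 FPKM in none of the DMSO libraries and was tested only because of its level with chaetocin. The transcript count was 5 without DMSO replicate 2, 6 without chaetocin replicate 1, 5 without chaetocin replicate 2 and 5 without chaetocin replicate 3, and 1 transcript was called lower without DMSO replicate 3 or without chaetocin replicate 1. Transcripts that share most of their length are told apart by few fragments, and their estimates vary more than those of the gene.

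mrp-1 has 5 listed transcripts, which differ in their ends and in exon 13, present in 4 alternative forms of 156 bases each (exon 14 in the transcript with an additional first exon). F57C12.5b.1, with exon 13 at 579988 to 580143 on chromosome X, rose from 4.07 to 11.7 FPKM (log2 fold change 1.52 ± 0.14; adjusted p by limma = 0.0027). Its share of mrp-1 was 48.5, 44.7 and 37.8% with DMSO and 60.9, 58.5 and 61.1% with chaetocin. F57C12.5c.1, with exon 13 at 580298 to 580453, rose from 2.86 to 4.82 FPKM (log2 fold change 0.73 ± 0.12; adjusted p by limma = 0.023), while its share was 30.6, 31.4 and 30.6% with DMSO and 23.9, 24.5 and 25.9% with chaetocin. F57C12.5e.1 had a share of 12.4 ± 2.02% and 6.37 ± 1.80% (SD, n = 3 each), and its FPKM did not pass (adjusted p by limma = 0.92). The shares of these transcripts did not overlap between the groups, with an exact two-sided permutation p of 0.1 each, the smallest possible. Of 43 transcript shares compared, 5 did not overlap (11.6%), near the 11.3% of all transcript shares of genes with several transcripts. The others were the pair of pgp-11, complements of each other, where DH11.3.1 made up 24.5, 23.2 and 23.7% with DMSO and 12.6, 0 and 0% with chaetocin.

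**Figure D5:**
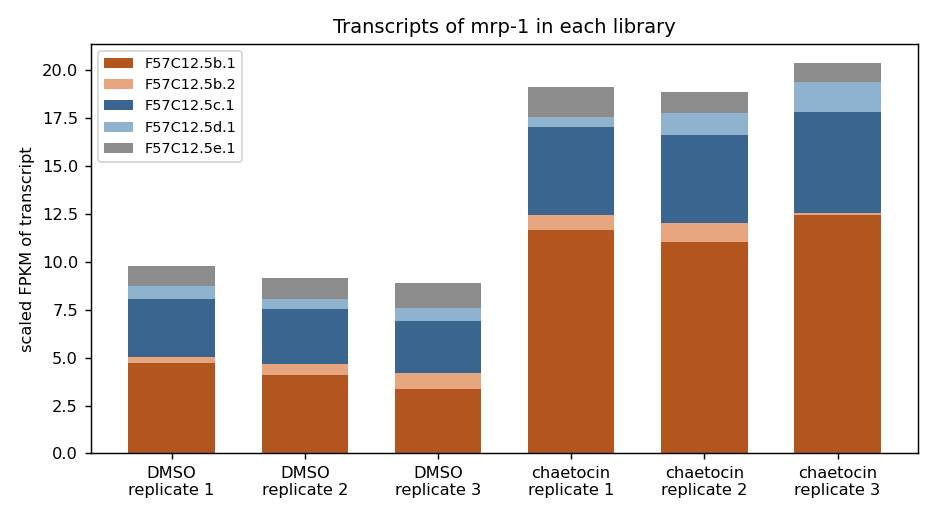
Scaled FPKM of the 5 mrp-1 transcripts stacked for each library. F57C12.5b.1 makes up 37.8 to 48.5% of the DMSO columns and 58.5 to 61.1% of the chaetocin columns, and all columns with chaetocin are taller.

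The authors' deposited table of coding genes lists 47 of the 48 genes. By its values 11 were higher and 1 lower with chaetocin at its p-value under 0.05, against 5.57% and 3.49% of its 16062 genes. All 9 genes called by limma were among the 11. The further calls in the authors' deposited table were pgp-12 (log2 fold change 0.61, p-value 0.025) and abt-2 (0.31, p-value 0.0037) as higher and mrp-4 (-0.21, p-value 0.036) as lower. For pgp-9 the authors' deposited table gives a log2 fold change of 5.76 with a standard error of 0.65, and for mrp-3 2.84 with 0.086. Both tables come from the same libraries and are not independent.

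ABC genes outside the name rule were examined as a list of 9, of which 7 were tested. hmt-1, a half-size transporter needed for tolerance of heavy metals, was the 1 that rose, at 38.9, 38.2 and 36.9 FPKM with DMSO and 49.4, 49.2 and 52.3 FPKM with chaetocin (log2 fold change 0.40 ± 0.04; adjusted p by limma = 0.0015). It is a half-size ABCB gene like those of the haf class, and its groups were wholly apart. Among all genes tested 5.53% were called higher, and a single call among 7 says nothing about the list. ced-7, which acts in the engulfment of dying cells, had 45.3 ± 4.46 and 42.0 ± 2.03 FPKM (adjusted p by limma = 0.52). The soluble members abce-1, abcf-1, abcf-2 and abcf-3, which do not transport but act in translation, had log2 fold changes between -0.04 and 0.05. abcx-1, at 0.321 ± 0.0812 and 0.269 ± 0.0862 FPKM (SD, n = 3 each), and abch-1 were below the filter.

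Lists of genes that work beside these transporters were also counted, to be read against the 5.53% of all genes called higher and the 2.92% called lower. A single call in a list of this size is near those shares and says nothing about the list. Of 12 tested regulators tied to xenobiotic or efflux genes, nhr-8, a nuclear receptor needed for resistance to colchicine and chloroquine, was the 1 that rose, from 12.7 ± 0.179 to 15.0 ± 0.492 FPKM (log2 fold change 0.24 ± 0.05; adjusted p by limma = 0.038). Of 8 tested genes of gut granule formation glo-3 rose, from 1.78 ± 0.164 to 5.46 ± 0.493 FPKM (log2 fold change 1.57 ± 0.12; adjusted p by limma = 0.00042). Among 9 partners in metal, heme and vitamin B12 handling 3 rose. They were cdr-1, a cadmium-induced gene (0.145 ± 0.0738 to 6.68 ± 1.12 FPKM), hrg-7, a secreted protease that signals heme status between organs (49.1 ± 1.45 to 248 ± 4.996 FPKM), and hrg-4, an intestinal heme importer (8.57 ± 1.31 to 12.3 ± 0.273 FPKM). Like pgp-1, cdr-1 reached 0.5 FPKM in none of the DMSO libraries and was tested only because of its level with chaetocin. Of 16 genes of peroxisomal import and beta-oxidation, prx-12 rose and ctl-2, daf-22 and acox-1.1 fell, with log2 fold changes of 0.32, -0.18, -0.25 and -0.25. Of 6 mitochondrial unfolded protein response partners of haf-1 and 7 clearance partners of ced-7, 0 were called (limma).

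Levels of genes that mark tissues were set beside these results. In bulk RNA a change in the number of cells of a type and a change in RNA per cell cannot be told apart. The 5 intestinal markers found summed to 298 to 302 FPKM with DMSO and 507 to 526 FPKM with chaetocin. 3 of the 5 rose, against 5.53% of all genes tested: act-5, an actin of intestinal microvilli (60.7 ± 6.66 to 244 ± 4.19 FPKM), ges-1 (38.4 ± 1.37 to 46.8 ± 0.237) and ifb-2 (116 ± 2.67 to 148 ± 3.08). Most of the rise in the sum came from act-5. The log2 fold changes of elt-2 and vha-6 lay below 0, at -0.09 and -0.13 (limma adjusted p of 0.43 and 0.30). All chaetocin libraries of elt-2 were below its DMSO libraries. The part of these intestinal markers in the changes of pgp and mrp genes was not tested. Of 3 markers each for pharynx, excretory cell, germline, body wall muscle and neurons 0 were called (limma). At unadjusted p under 0.05 (limma) rab-3 and vha-5 were lower. Among all genes tested 5.53% were called higher and 2.92% lower, so 0 of 3 is near those shares. The summed ranges of both groups overlapped: pharynx markers summed to 74.4 to 117 and 72.5 to 85.9 FPKM, and excretory cell markers to 31.0 to 35.7 and 31.9 to 33.9 FPKM with DMSO and chaetocin. Most of the neuron sum was snb-1, with a mean of 322 FPKM in each group. The median log2 fold change was -0.29 for the pharynx markers, with all 3 of them below 0 (myo-1 -0.29, myo-2 -0.16 and tnt-4 -0.42). It was -0.12 for the excretory cell markers, which differed in sign (aqp-8 0.18, ceh-6 -0.14 and vha-5 -0.12). Germline, muscle and neuron markers had medians between -0.02 and 0.01. The neuron markers did not move alike: all chaetocin libraries lay below DMSO for rab-3 (-0.22) and above DMSO for unc-13 (0.28). The part of these levels in the values of pgp-14 and pgp-12 was not tested.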

How the data were processed

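Total RNA of whole animals was made into libraries with a SMARTer kit for mRNA sequencing, as the labels' protocols say. The authors deposited FPKM for genes and for transcripts, with 1 column per library. The unit was read from the values, since no header names it. The submitters' processing notes name STAR 2.7.9a, RSEM 1.3.1, Trimmomatic 0.36, MultiQC, FastQC 0.11.4 and the build WBcel235, with no role or order. Neither the annotation release nor the use of strand is given in the sources used here. Genes that overlap another gene, mrp-4 and cft-1 among others, are therefore uncertain. RSEM divides fragments that match several genes or isoforms by estimation.

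A table of coding genes deposited by the authors holds, for 16062 genes, a log2 fold change (DMSO relative to chaetocin, turned here), another column with its standard error, a p-value, and a mean normalized count, which is a signal averaged over libraries. No source used here says how the p-value was made. It was read as adjusted: it lay a median 1.01 times from a Benjamini-Hochberg adjusted p computed from the fold changes and standard errors.

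Columns were scaled by a trimmed mean of log ratios without weights (30% of ratios and 5% of means trimmed at each end, factors 0.977 to 1.03). Genes that reached 0.5 FPKM in 3 or more libraries entered limma 3.58.1 (R 4.3.3), fitted to log2(FPKM + 0.1) with the variance moderated along the mean. Its p-values are 2-sided and adjusted by Benjamini-Hochberg over all genes or transcripts tested. Fold changes on this scale understate low genes. Levels are scaled FPKM, ± after a level is SD, and ± after a fold change is SE. Positions come from Ensembl release 115 of WBcel235, which holds all 46926 gene identifiers. The members and lists were chosen with earlier results of these data known. Every member may be named; full values go to called members, the most abundant of each class, the 3 uncalled members with the largest change, genes picked for their known roles, and neighbours of called members within 20 kb. Of the other lists, called genes are named. apt-6, apt-7 and opt-2 had no match in the table.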

Additional observations from a re-analysis of the deposited data

How the results depend on the processing

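Pseudocounts of 0.5 and 1 FPKM, no filter, a filter of 1 FPKM, unscaled FPKM, a fit without the mean-variance trend, a replicate block and each library left out were tried, with the tested genes held fixed when a library was left out. Of 117 values of the 9 called genes 116 kept direction and call. The exception was pgp-3 with the replicate block (log2 fold change 0.96, adjusted p = 0.058). Same-number correlations of deviations were weak (0.106, 0.0668 and -0.0265 for replicates 1, 2 and 3). DMSO replicates 1 and 2 each correlated best with the chaetocin replicate of the same number. DMSO replicate 3 correlated best with chaetocin replicate 2 (0.078). These values do not decide whether the replicate numbers pair the libraries. Library titles number the DMSO libraries NA1, NA3 and NA4 and the chaetocin libraries NB1, NB2 and NB3. The block used the labels' replicate numbers, so it may join libraries that were not handled together. With the replicate block 255 genes in all were called lower in place of 444, and 5 ABC transcripts higher in place of 11. Leaving out single libraries gave 274 to 510 genes lower in all, 0 to 1 ABC genes lower, 5 to 9 ABC transcripts higher and 0 to 1 lower. haf-7 passed without the trend (0.23, adjusted p = 0.046).

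Sign changes arose in 14 of the 36 genes that missed the threshold. Their log2 fold changes as reported lay between -0.10 and 0.11. haf-6 was -0.0080 with no filter, -0.00345 with 1 FPKM and -0.013 unscaled. haf-9 was -0.0024 with no filter and -0.0078 unscaled, and mrp-5 -0.0038 and -0.0091. With single libraries left out the log2 fold change ran from -0.0253 to 0.0451 for haf-1, -0.0511 to 0.0171 for wht-2, -0.0757 to 0.158 for cft-1, -0.0302 to 0.0216 for haf-3, -0.0961 to 0.0396 for pgp-6, -0.206 to 0.0903 for pgp-10 and -0.0578 to 0.0147 for pmp-3. It ran from -0.0832 to 0.308 for wht-3, -0.161 to 0.134 for haf-6, -0.0459 to 0.0322 for haf-9, -0.0429 to 0.0307 for mrp-5, -0.30 to 0.134 for pgp-13, -0.0459 to 0.0619 for wht-7 and -0.0667 to 0.0261 for abt-1. The cause of these changes was not tested. Depth per library is unknown, so the precision of low levels rests on 3 libraries per group.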

Other observations

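Genes of other families that lie within 20 kb of a called ABC transporter gene were listed, whichever strand they use. Of 29 such genes tested, 1 was called higher and 4 lower with chaetocin (limma), against 5.53% and 2.92% of all genes tested, and whether these neighbours differ from other genes was not tested. The higher one was F57C12.2, near mrp-2, which rose from 3.42 to 6.13 FPKM (log2 fold change 0.82; adjusted p by limma = 0.0084). The lower ones were aco-1 near pgp-3, ddo-1 near pgp-9, cept-1 near pgp-14 and phf-10 near abt-4, with log2 fold changes of -0.24, -0.52, -0.43 and -0.29. Beside pgp-9, the gene with the 54.7-fold gain, ddo-1 fell from 15.4 to 10.7 FPKM and R12G8.1 stood at 0.154 and 0.766 FPKM (adjusted p by limma = 0.081).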
